A study of Mus musculus with 10 samples.

Results

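The 9 genes described here, Cd2, Cd5, Cd6, Cd7, Cd28, Icos, Cd226, Cd96 and Thy1, encode accessory and CD28-family receptors of the T cell surface. They were listed by name out of 54408 genes in the count tables, with earlier results of these data known. All 9 were expressed and tested, at between 45.9 and 516 TPM (a level scaled by transcript length and library total) in the mean of the wild-type libraries. RNA was measured in bulk from CD8 T cells sorted from mouse tumours, so that fewer cells of a type and less RNA per cell cannot be told apart.

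The cells were P14 CD8 T cells on the C57BL/6 background. The transgenic receptor of P14 cells binds the gp33 peptide, which the B16-gp33 melanoma line was made to express. All donor cells were NFAT5flox/flox. Those called WT were CD4-Cre-/-, and those called NFAT5 KO were CD4-Cre+/-, where Cre is driven by the Cd4 promoter and acts from the thymus onward. After 48 hours of activation in culture, 5 Mio T cells (the unit of the labels) were given to mice with subcutaneous tumours, and tumour-infiltrating CD8 T cells were sorted 7 days later. NFAT5 is a transcription factor known for the response to osmotic stress. There were 5 libraries of each genotype. Values below run in the order 678_2, then 678_4, then 679_3, 679_4, 679_5 for WT and 678_3, then 678_5, then 678_6, 679_2, 679_6 for NFAT5 KO. The meaning of the prefixes 678 and 679 is not in the labels, nor is whether each library came from its own mouse, nor which marker told P14 cells from the CD8 T cells of the host. P-values therefore measure the spread between these libraries, which may in part be technical. The summed count of Nfat5 does not separate the floxed part of the gene from the rest and does not test the genotype labels.

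Accessory receptors do not recognise antigen. They set how firmly a T cell holds its target and how strongly the T cell receptor signals. CD2, CD6, CD226 and CD96 bind ligands on other cells, CD5 dampens receptor signalling, and CD28 and ICOS are costimulators that recruit phosphoinositide 3-kinase. In tumours, CD28 competes with CTLA-4 for CD80 and CD86, and CD226 competes with TIGIT and CD96 for CD155.

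Of the 9 genes, 4 were higher in NFAT5 KO libraries (Cd2, Cd5, Cd7 and Cd28), 0 were lower and 5 did not pass the test (edgeR quasi-likelihood test with Benjamini-Hochberg adjustment over all genes, adjusted p below 0.05). Over all 13081 genes tested, 3.38% were called higher, 5.63% lower and 9.01% in either direction. The median log2 change (the log2 fold change, NFAT5 KO minus WT) of the 9 genes was 0.37, beside 0.02 over all tested genes. Values were above 0 for 7 of the 9 genes, and for 6779 of the 13081 genes tested. At an unadjusted p below 0.05 in the edgeR test, 6 of the 9 differed, all of them higher. Over all tested genes, 3041 of 13081 differed at that p, 1453 of them higher. Every NFAT5 KO library lay above every WT library for 3 of the 9 genes (Cd2, Cd7 and Cd28), where 3.92% of all tested genes did so. These calls rested in part on single libraries: without WT 678_2, NFAT5 KO 678_6 or WT 679_3 the number called was 2 (Cd7 and Cd28).

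**Figure D1:**
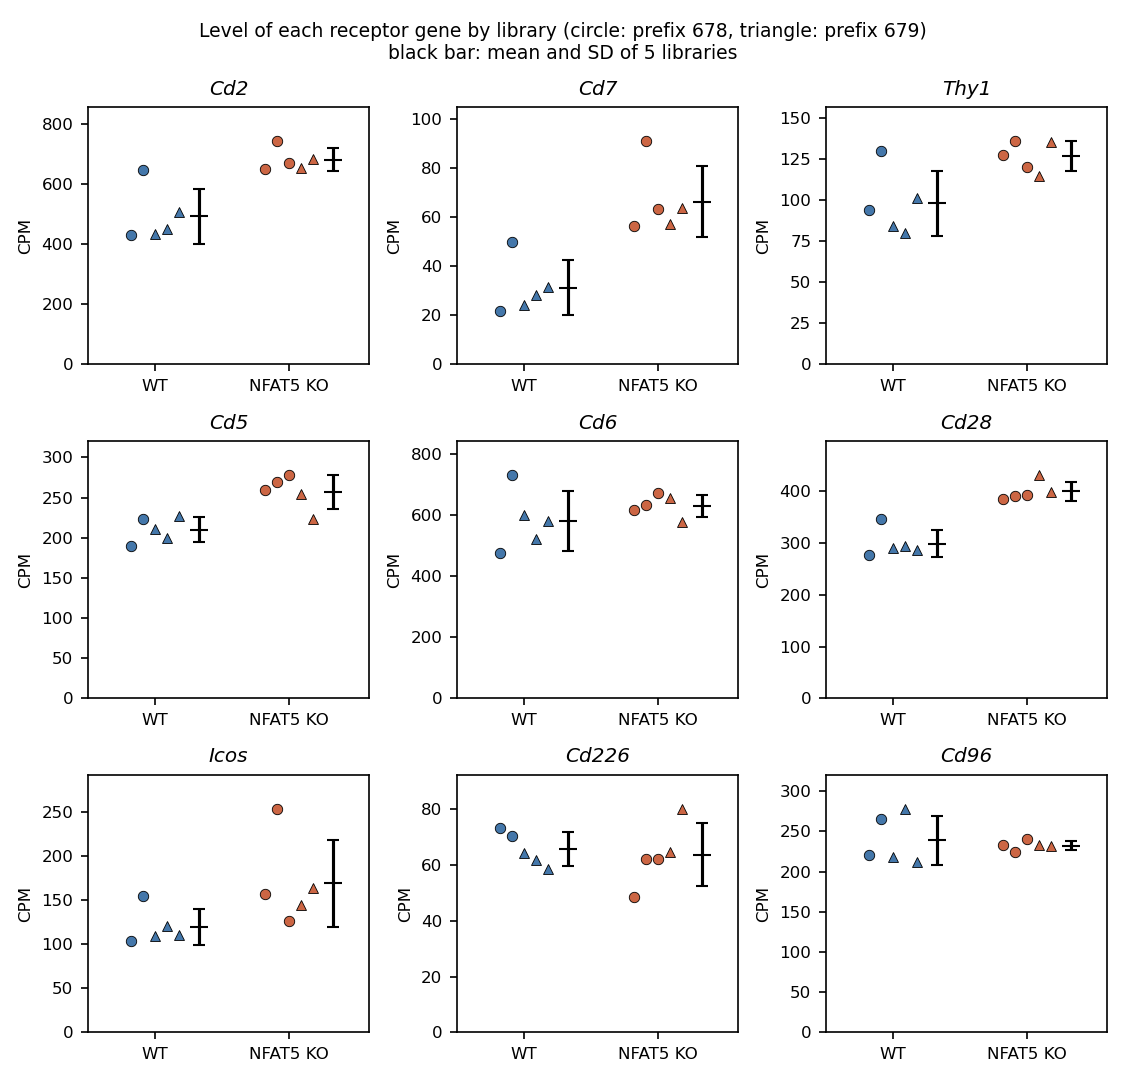
CPM (estimated counts scaled to a common library total) of the 9 receptor genes in each WT (blue) and NFAT5 KO (red) library, with circles for label prefix 678, triangles for 679 and black bars for the mean and SD of 5 libraries. The groups do not overlap for Cd2, Cd7 and Cd28, and they overlap for the other 6 genes.

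Expression markers of the sorted population were those of CD8 T cells, and RNA of other cell types was low. The 7 CD8 T cell markers summed to 7122 to 8022 CPM in WT libraries, against 7534 to 7943 CPM in NFAT5 KO libraries. Of these, Trac was called higher (log2 change 0.50, adjusted p = 0.00936, edgeR) and 6 were not called. Cd4 and Foxp3 together stayed at or below 2.42 CPM. The NK cell marker Ncr1 was at 0 in every library, and the 4 NK markers summed to 16.6 to 52.7 CPM in WT libraries, against 30.4 to 57.6 CPM in NFAT5 KO libraries. Most of this sum was Eomes, at 15.4 to 49.7 CPM in WT and 25.0 to 55.8 CPM in NFAT5 KO libraries. Klra8 stayed at or below 0.0407 CPM. The 8 macrophage markers summed to 53.4 to 126 CPM in WT libraries, against 20.1 to 64.4 CPM in NFAT5 KO libraries, with 1 of the 8, Adgre1, called lower and none higher. None of these 8 was at 0 in all libraries. The 4 B cell markers summed to 8.41 to 14.4 CPM in WT libraries, against 5.15 to 11.0 CPM in NFAT5 KO libraries, with none called. Siglech, S100a9, Col1a2, Pdgfra, Cdh5 and Kdr, which mark plasmacytoid dendritic cells, neutrophils, fibroblasts and endothelium, were at 0 everywhere. Other markers of these types were not: Pecam1, the remaining endothelial marker, stood at 39.7 to 68.3 CPM in WT libraries against 35.3 to 50.4 CPM in NFAT5 KO libraries (log2 change -0.42, adjusted p = 0.106, edgeR). Xcr1, a dendritic cell marker, stood at 3.18 to 10.01 CPM against 7.96 to 14.7 CPM (log2 change 1.09, adjusted p = 0.0700, edgeR). The other 3 dendritic, 2 neutrophil and 3 fibroblast markers stayed at or below 1.88 CPM. The 5 melanoma markers summed to 1.19 to 3.40 CPM in WT libraries, against 0.916 to 3.14 CPM in NFAT5 KO libraries. Of these 5, 1 was tested and not called, and 4 were too low to test. The part of these cell type markers in the results was not tested, nor was which cells the Eomes and Pecam1 RNA came from.

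Cd2 (ENSMUSG00000027863, GRCm38 chr3:101275899-101287939, minus strand) encodes an adhesion receptor that binds CD48 in mice. Its levels were 431, 648, 433, 449.6 and 508 CPM in the WT libraries and 652, 745, 671, 653 and 684 CPM in the NFAT5 KO libraries. WT 678_4 stood near the NFAT5 KO range, while the other 4 WT libraries lay well below it. The mean rose from 494 ± 91.8 to 681 ± 38.3 CPM (SD, n = 5 each), a log2 change of 0.46 (SE 0.11, adjusted p = 0.0204 in the edgeR test). Of the 10 fits with 1 library removed, 6 kept the call. It was lost without WT 679_3 (adjusted p = 0.0665), WT 678_2 (0.0655), NFAT5 KO 679_6 (0.0523) or NFAT5 KO 678_6 (0.0516). Transcript Cd2-201, with 5 exons, held 98.5% ± 0.467 of the gene's estimated counts in WT and 98.9% ± 0.134 in NFAT5 KO libraries.

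Cd7 (ENSMUSG00000025163, chr11:121036747-121039418, minus strand), an immunoglobulin-family receptor of T and NK cells, had the largest fold change of the 9. It was counted at 21.8, 50.1, 24.2, 28.2 and 31.6 CPM in WT libraries and at 56.3, 91.3, 63.4, 57.1 and 63.8 CPM in NFAT5 KO libraries. The highest WT library was again 678_4, and the lowest NFAT5 KO library still lay above it. Cd7 rose from 31.2 ± 11.2 to 66.4 ± 14.3 CPM (SD, n = 5 each), a 2.13-fold change (log2 1.09, SE 0.22, adjusted p = 0.00841, edgeR). All 10 fits that left out 1 library called it, with log2 changes of 0.93 to 1.31 and a highest adjusted p of 0.0279.

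Thy1 (ENSMUSG00000032011, chr9:44043384-44048579, plus strand) encodes the lipid-anchored glycoprotein CD90, a pan-T-cell marker in mice. Its WT levels were 94.1, 130.4, 84.4, 80.4 and 102 CPM, and its NFAT5 KO levels 128, 136, 121, 115 and 136 CPM. WT 678_4 lay inside the NFAT5 KO range, and the other WT libraries lay below it. The log2 change was 0.37 (SE 0.13), which did not pass (adjusted p = 0.0882, edgeR). It passed without WT 678_4 (0.48, adjusted p = 0.0117) and in the DESeq2 Wald test (0.37, adjusted p = 0.0438). Thy1-201 held 66.4% ± 3.62 of the gene's counts in WT and 65.8% ± 4.96 in NFAT5 KO libraries.

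Cd5 and Cd6 are neighbours on chromosome 19, 50.3 kb apart, and encode related scavenger-receptor-type proteins. Cd5 (ENSMUSG00000024669, chr19:10717116-10739002, minus strand) is known as a brake whose level follows the strength of T cell receptor signalling. Its WT levels were 189, 223, 211, 200.1 and 228 CPM, and its NFAT5 KO levels 260.1, 269, 279, 254 and 223 CPM. In 4 of 5 NFAT5 KO libraries the level was above the WT maximum, and 679_6 lay inside the WT range. Cd5 rose from 210.2 ± 15.8 to 257 ± 21.0 CPM (SD, n = 5 each), a log2 change of 0.29 (SE 0.083) that only just passed (adjusted p = 0.0468, edgeR). Of the fits that left out 1 library, the call passed only without NFAT5 KO 679_6 (adjusted p = 0.0398). In the other 9, without WT 678_2, 678_4, 679_3, 679_4 or 679_5 or NFAT5 KO 678_3, 678_5, 678_6 or 679_2, the adjusted p lay between 0.0609 and 0.139. With the label prefix as a block it was 0.0853.

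Cd6 (ENSMUSG00000024670, chr19:10789341-10830058, minus strand) encodes a receptor for ALCAM. It stood at 474, 731, 598, 519 and 581 CPM in WT libraries and at 615, 631, 671, 654 and 577 CPM in NFAT5 KO libraries. The NFAT5 KO values all lay between the lowest and the highest WT value. The log2 change was 0.12 (SE 0.11, adjusted p = 0.553, edgeR). The difference between Cd5 and Cd6 was not tested.

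Cd6 had 2 main coding transcripts, and the ranges of their shares overlapped between the genotypes. Cd6-203, with 13 exons, held 73.3% ± 3.66 of the gene's estimated counts in WT and 74.1% ± 1.80 in NFAT5 KO libraries. Cd6-202, with 12 exons, held 21.6% ± 3.62 and 20.9% ± 1.85. The shares ran from 67.8% to 77.1% in WT and from 71.0% to 75.6% in NFAT5 KO libraries for Cd6-203. Salmon assigns shared reads to such transcripts by a model, so these shares are estimates. The exon that Cd6-203 has and Cd6-202 lacks is exon 9, at GRCm38 chr19:10792828-10792944 on the minus strand, 117 bases or 39 codons long. It is printed from the reference, 5′ to 3′, because it is the whole exon that the main transcripts do not share. The transcripts (3032 and 2813 bases) also differ in the extent of their first and last exons in the annotation.
Cd6 exon 9: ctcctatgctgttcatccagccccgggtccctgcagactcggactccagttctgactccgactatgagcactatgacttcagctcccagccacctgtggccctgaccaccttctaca

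RefSeq start windows, from 250 bases before to 50 after the start (GRCm38.p6), were at hand for 2 of the 9 genes, Cd5, which was called higher, and Cd96, which was not called. These 2 were searched for TGGAAA and its reverse complement TTTCCA, the core letters of binding sequences described for NFAT5, and the other 7 genes were not searched. The windows are shown so that both hits can be read in place. The minus-strand windows cover chr19:10738925-10739224 for Cd5 and chr16:46120199-46120498 for Cd96, and capitals mark the TTTCCA.
Cd5: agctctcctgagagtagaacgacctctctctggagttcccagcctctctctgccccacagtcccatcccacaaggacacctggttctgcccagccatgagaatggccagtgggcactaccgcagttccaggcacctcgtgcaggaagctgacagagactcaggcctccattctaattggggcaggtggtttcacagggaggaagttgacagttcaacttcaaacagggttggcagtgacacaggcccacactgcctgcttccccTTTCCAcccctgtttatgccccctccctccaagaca
Cd96: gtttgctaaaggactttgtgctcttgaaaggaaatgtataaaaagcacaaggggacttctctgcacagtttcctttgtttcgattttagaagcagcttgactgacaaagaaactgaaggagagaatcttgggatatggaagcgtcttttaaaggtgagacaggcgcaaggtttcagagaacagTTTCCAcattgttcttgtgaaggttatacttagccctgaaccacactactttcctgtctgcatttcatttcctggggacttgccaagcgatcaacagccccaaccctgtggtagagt
The hit lay 14 bases after the annotated start in Cd5 and 67 bases before it in Cd96. Of 32851 windows of 300 bases in the table, 7040 (21.4%) hold these letters on 1 strand or the other. The match is a description of the letters and not of a bound site, and the letters occur in the window of a called and of an uncalled gene.

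Cd28 (ENSMUSG00000026012, chr1:60716800-60773359, plus strand) had the smallest p-value of the 9. WT libraries held 277, 345, 289.6, 294 and 287 CPM, and NFAT5 KO libraries 385, 391, 393, 432 and 397 CPM. The groups did not overlap, and WT 678_4 and NFAT5 KO 679_2 stood above the others of their genotype. Cd28 was 1.34-fold higher in NFAT5 KO libraries (log2 0.42, SE 0.076, adjusted p = 0.0045, edgeR). Each fit that left out 1 library called it (log2 0.37 to 0.46, highest adjusted p = 0.0207). Cd28-201 held 97.0% ± 0.929 of the counts in WT and 95.8% ± 0.813 in NFAT5 KO libraries. A retained-intron transcript, Cd28-203, held 1.76% to 4.36% in WT and 2.89% to 4.89% in NFAT5 KO libraries, with overlapping ranges.

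Icos (ENSMUSG00000026009, chr1:60977927-61000320, plus strand) lies 204.6 kb from Cd28, with Ctla4 between them. It stood at 104, 155, 109.7, 121 and 111 CPM in WT libraries and at 157, 254, 126, 144 and 164 CPM in NFAT5 KO libraries. NFAT5 KO 678_5 was far above the others, and 3 of 5 NFAT5 KO libraries lay above the WT maximum. The log2 change was 0.49 (SE 0.18), which did not pass in the edgeR test (adjusted p = 0.105) and passed in the DESeq2 Wald test (adjusted p = 0.0469). Without NFAT5 KO 678_5 the log2 change was 0.28 (adjusted p = 0.216, edgeR), and without each of the other libraries it was 0.44 to 0.58. Icos-202 held 90.7% ± 0.928 of the counts in WT and 92.1% ± 3.36 in NFAT5 KO libraries.

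Cd226 (ENSMUSG00000034028, chr18:89176967-89272229, plus strand) encodes the activating receptor DNAM-1. Its levels were 73.2, 70.5, 64.2, 61.9 and 58.5 CPM in WT libraries and 48.5, 62.3, 62.3, 64.8 and 80.3 CPM in NFAT5 KO libraries. NFAT5 KO libraries held both the lowest and the highest of the 10 values. The genotypes did not differ at the threshold (log2 change -0.04, SE 0.13, adjusted p = 0.881, edgeR). The change was -0.32 within prefix 678 and 0.23 within prefix 679, and the interaction of genotype with prefix had an unadjusted p of 0.0351 and an adjusted p of 0.9998 in the edgeR fit. Its counts were spread over 10 transcripts. Cd226-201 held 25.3% ± 3.24 in WT and 26.8% ± 7.97 in NFAT5 KO libraries, and Cd226-207 held 24.7% ± 3.54 and 26.8% ± 9.10. With an offset for transcript length the log2 change was -0.20 (adjusted p = 0.400, edgeR).

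Cd96 (ENSMUSG00000022657, chr16:46035657-46120251, minus strand) encodes a receptor of the same ligand as DNAM-1, with 1 transcript in the tables. WT levels were 220.2, 266, 218, 278 and 212 CPM, and NFAT5 KO levels 233, 224, 240.2, 233 and 232 CPM. The NFAT5 KO libraries lay close together, within the WT range. The log2 change was -0.04 (SE 0.089, adjusted p = 0.841, edgeR). Neither Cd226 nor Cd96 passed in any of the fits run, which does not show that their levels were equal in the genotypes.

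**Figure D2:**
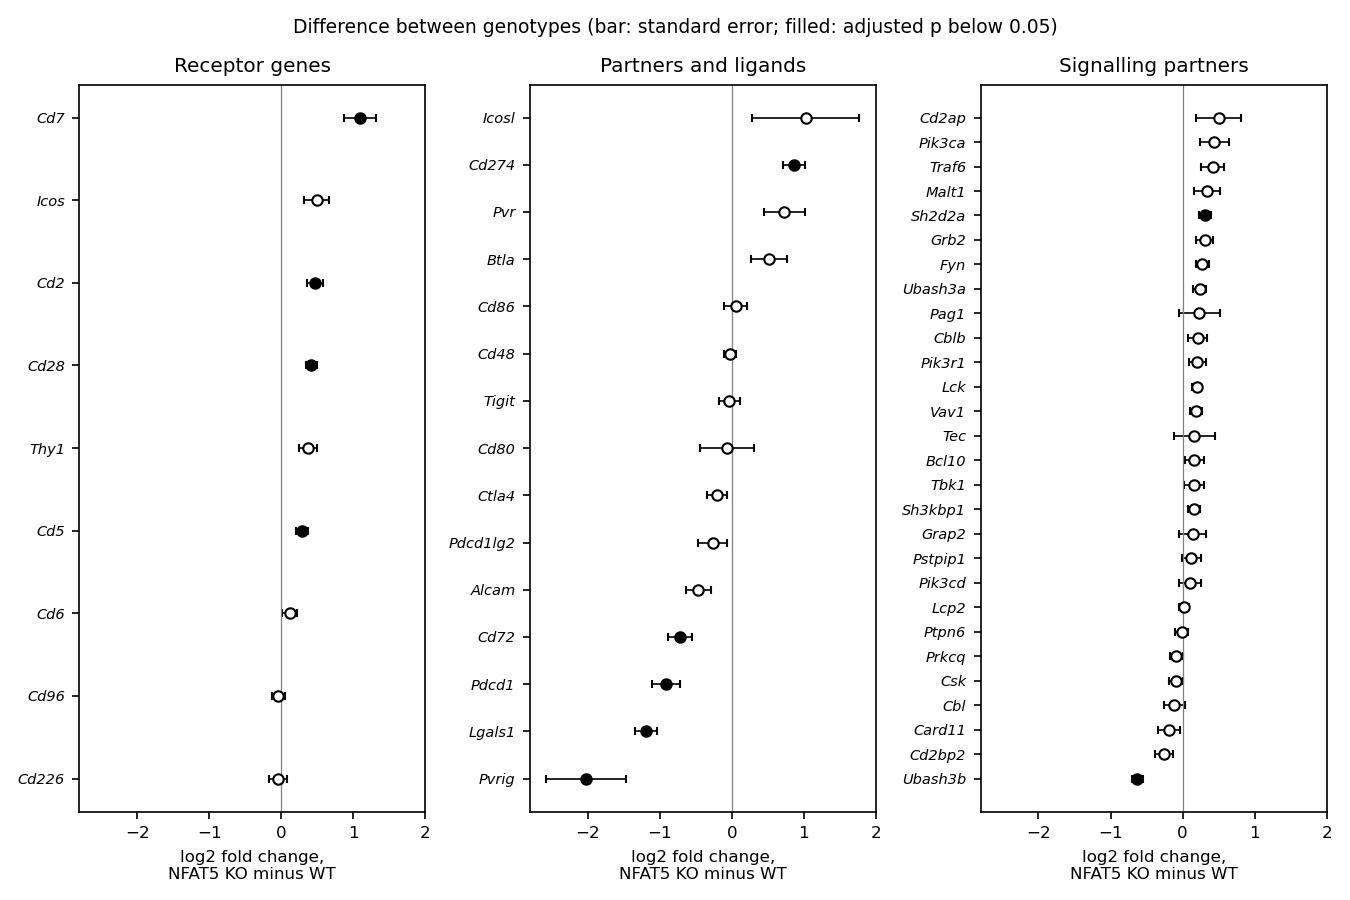
Log2 change (NFAT5 KO minus WT, x axis) with its standard error for the 9 receptor genes, 15 tested partner and ligand genes and the listed signalling genes. Points are filled for an adjusted p below 0.05. The gene of the signalling list that is not reported here is left out. Of the receptor genes 4 are filled, all to the right of 0, while 4 of the 5 filled partner genes lie to the left.

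On the length-scaled TPM scale, Cd2, Cd6, Thy1 and Cd5 held the first 4 places in both genotypes. The TPM of a gene is the sum over its transcripts, so short transcripts weigh more for the same count. In the WT means, the 449-base processed transcript Thy1-203 held 61.3 TPM, against 43.4 TPM for the coding Thy1-201. The 742-base Cd226-205 held 26.5 TPM, against 6.91 for Cd226-201 and 4.42 for Cd226-207. The order thus rests in part on how the model assigned reads to transcripts. The WT means were 516 TPM for Cd2, 242 for Cd6, 178 for Thy1, 121 for Cd5 and 102 TPM for Cd96. Cd28 followed at 74.7 TPM, Cd226 at 73.2, Icos at 53.1 and Cd7 at 45.9 TPM. In WT libraries the ranges of Cd6 and Thy1 overlapped, as did those of Cd5 and Cd96, and each neighbouring pair from Cd28 down to Cd7. In NFAT5 KO libraries the means were 715 TPM for Cd2, 262 for Cd6, 231 for Thy1 and 149.7 for Cd5. Below these, Cd28 (103 TPM), Cd96 (100.1), Cd7 (99.1), Icos (72.7) and Cd226 (65.0 TPM) each overlapped with the next. Cd7 was last of the 9 in WT, and its range in NFAT5 KO libraries overlapped with those of its neighbours Cd96 and Icos.

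The 2 label prefixes each held both genotypes. In prefix 678 (2 WT, 3 NFAT5 KO), 0 of the 9 genes were called in the edgeR test, beside 0% of all tested genes called higher there. At an unadjusted p below 0.05, Cd5, Cd7 and Cd28 differed in that prefix, beside 1449 of all 13747 genes tested there. In prefix 679 (3 WT, 2 NFAT5 KO), 1 of the 9 was called, Cd7 (log2 change 1.10, adjusted p = 0.0342), beside 0.508% of all genes called higher. There, Cd2, Cd7, Cd28, Icos and Thy1 differed at an unadjusted p below 0.05, beside 2242 of all 13966 genes tested. The signs were the same in both prefixes for every member other than Cd226. Cd28 had a log2 change of 0.32 in prefix 678 and 0.51 in 679, and Cd2 of 0.35 and 0.52. Cd5 had 0.38 and 0.16, and Thy1 0.19 and 0.49. No gene passed the interaction test over all genes (0 calls by edgeR, 377 genes at an unadjusted p below 0.05), and Cd226 was the only member with an unadjusted interaction p below 0.05.

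**Figure D3:**
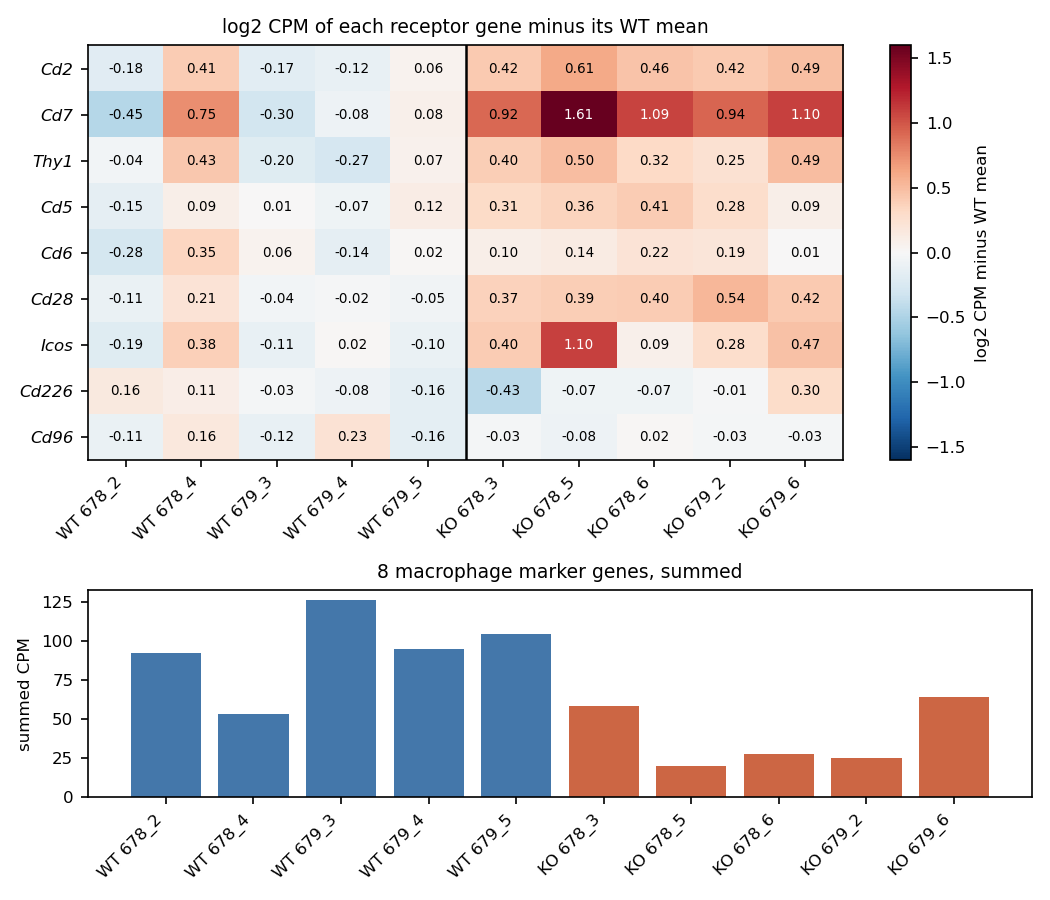
Upper panel: log2 CPM of each receptor gene (rows) minus its WT mean in each library (columns), from blue (lower) to red (higher). Lower panel: summed CPM of 8 macrophage marker genes per library. WT 678_4, at 53.4 CPM the lowest WT library for these markers, is the highest WT library for 6 of the 9 receptor genes. WT 679_3, at 126 CPM the highest WT library for these markers, is the lowest WT library for 0 of the 9. Its mean difference from the WT mean over the 9 genes is -0.10, beside -0.15 in WT 678_2.

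Libraries differed in a shared way across several of the receptor genes. WT 678_4 was the highest WT library for 6 of the 9 and WT 678_2 the lowest for 6, and NFAT5 KO 678_5 was the highest of its genotype for 4. After subtracting the group means, 33 of the 36 pairs of receptor genes had a correlation of log2 CPM above 0 over the 10 libraries, 15 of them above 0.5, with a median of 0.35. The highest was 0.954 (Cd2 with Cd7) and the lowest -0.571 (Cd5 with Cd226). These points share library and depth, and no test was made. Pairs of other genes were not counted, so the shared pattern is not shown to be particular to these 9 genes.

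The summed macrophage markers were lowest in WT 678_4 and NFAT5 KO 678_5 within their genotypes. They stood at 92.3, 53.4, 126, 94.6 and 104 CPM in WT libraries and at 58.5, 20.1, 28.0, 25.2 and 64.4 CPM in NFAT5 KO libraries. WT 679_3, with the highest sum, was the lowest WT library for 0 of the 9 receptor genes, and WT 678_2 was the lowest for 6. The mean over the 9 genes of log2 CPM minus the group mean was -0.15, 0.32, -0.10, -0.06 and -0.01 in WT libraries. In NFAT5 KO libraries this mean was -0.08, 0.15, -0.03, -0.04 and 0.01. The order of the libraries was not tested. With the mean of these markers as a covariate, 0 of the 9 genes were called in the edgeR test, and 0.00764% of all genes were called higher. Cd7 then had a log2 change of 0.68 (adjusted p = 0.379), Cd28 of 0.35 (adjusted p = 0.246), Cd2 of 0.31 (adjusted p = 0.526) and Cd5 of 0.17 (adjusted p = 0.715). Thy1 and Icos stood at 0.28 and 0.19. The marker mean and the genotype cannot be told apart in full, since the covariate itself differed between the groups. In the DESeq2 Wald test, 6 of the 9 were called higher (Cd2, Cd5, Cd7, Cd28, Icos and Thy1), beside 6.20% of all genes.

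**Figure D4:**
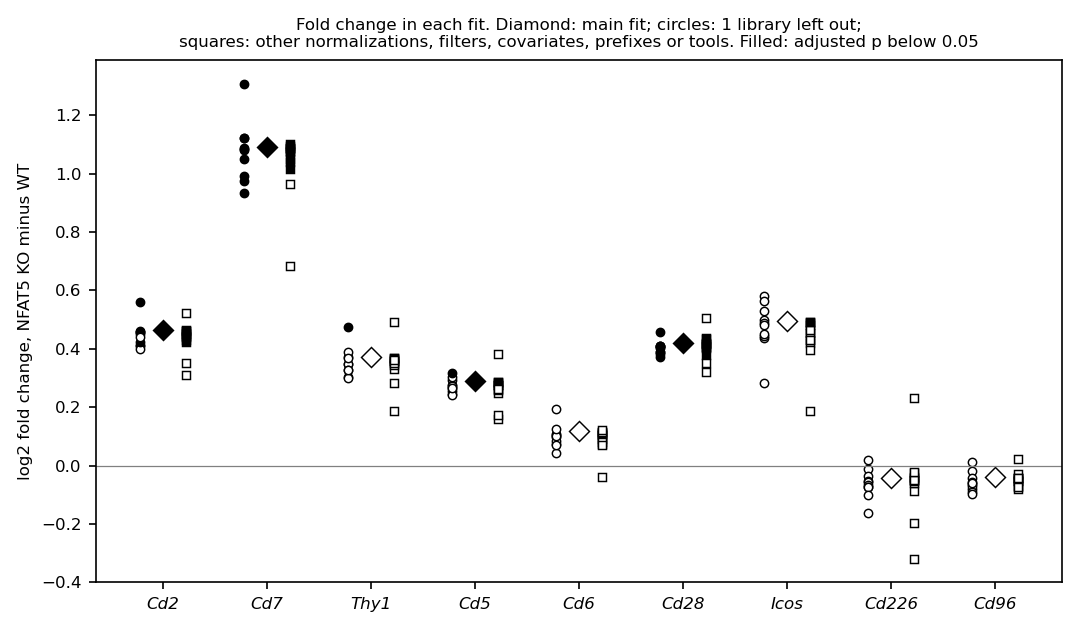
Log2 change (NFAT5 KO minus WT, y axis) of each receptor gene in the reported fit (diamond), with 1 library left out (circles) and under other normalizations, filters, covariates, prefixes and tools (squares), filled where the adjusted p is below 0.05. Cd7 and Cd28 are filled in every fit with 1 library left out, and Cd226 and Cd96 scatter around 0.

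Other genes whose log2 CPM followed the called members most closely over the 10 libraries were found by Pearson correlation, as a description. For Cd2 they were Map2k3 (0.987), Cd7 (0.985) and Icam1 (0.977), and for Cd7 they were Cd2 (0.985), Pld3 (0.977) and Icam1 (0.977). For Cd5 they were Egr2 (0.953), Sh2d2a (0.943) and Zfp830 (0.940). For Cd28 they were Cpne3 (0.981), Gadd45b (0.979) and Hsp90ab1 (0.974). Each of these genes was itself called higher in NFAT5 KO libraries, so that the genotype difference is part of the correlation.

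Ligands and competing receptors of the 9 were listed as well. Of 20 listed, 15 were tested, 1 was higher, 4 were lower and 10 did not pass, with a median log2 change of -0.07. Over all tested genes 3.38% were higher and 5.63% lower, and no difference between the list and other genes was tested. Nectin1, Nectin2, Nectin3, Sectm1a and Sectm1b were too low to test. Cd274, which encodes PD-L1, also a binding partner of CD80, rose from 29.4 ± 1.86 to 53.3 ± 12.1 CPM (SD, n = 5 each; log2 change 0.86, SE 0.15, adjusted p = 0.0043, edgeR). Lgals1, which encodes galectin-1, a lectin that binds CD2, CD7 and other T cell glycoproteins, fell from 770.2 ± 145 to 337 ± 72.7 CPM (log2 change -1.19, adjusted p = 0.000733, edgeR). Every NFAT5 KO library of Cd274 lay above, and every one of Lgals1 below, the WT range.

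Pdcd1, the CD28-family gene of the inhibitory receptor PD-1, fell from 331 ± 40.7 to 176 ± 62.0 CPM (log2 change -0.91, SE 0.19), with 4 of 5 NFAT5 KO libraries below the WT range. Cd72, a proposed ligand of CD5, fell from 60.9 ± 9.98 to 37.1 ± 7.85 CPM (log2 change -0.72, SE 0.17). Pvrig, an inhibitory receptor gene of the nectin system, was near the limit of detection with 4.41 ± 1.25 CPM in WT libraries against 1.08 ± 0.836 CPM in NFAT5 KO libraries, and was called lower (log2 change -2.03, adjusted p = 0.0403, edgeR). Its call passed only without NFAT5 KO 678_5 or WT 679_3 among the fits with 1 library left out, and the other 8 gave adjusted p-values of 0.0518 to 0.0988, the highest without WT 678_2. The call was also lost with the label prefix as a block (adjusted p = 0.053) and with the melanoma marker covariate (adjusted p = 0.0671). Calls of Cd274, Lgals1, Pdcd1 and Cd72 passed in all 10 of these fits.

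Of 29 genes for proteins that signal below these receptors, all 29 were tested, 2 were higher, 1 was lower and 26 did not pass, with a median log2 change of 0.16. The share called is close to the 9.01% of all tested genes called in either direction. Sh2d2a, which encodes the adaptor TSAd, rose by 0.31 (log2, with SE 0.078; adjusted p = 0.0257). It passed only without WT 678_4 or NFAT5 KO 679_6 among the fits with 1 library left out, and the other 8 gave adjusted p-values of 0.0512 to 0.0788, the highest without WT 679_3. Ubash3b, a phosphatase that dampens receptor signalling, fell from 262 ± 20.2 to 169 ± 7.97 CPM (SD, n = 5 each), a log2 change of -0.63 (SE 0.076, adjusted p = 0.000477, edgeR). Its groups did not overlap and all 10 fits that left out 1 library called it.

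Ratios within a library compared receptors that share a ligand or a family, and they do not depend on the scaling between libraries. Cd28 was compared with Ctla4 (chr1:60887000-60915832), whose own log2 change was -0.21 (adjusted p = 0.416, edgeR). The log2 ratio of Cd28 to Ctla4, in TPM with 0.5 added, was -1.46, -1.01, -1.64, -1.87 and -1.30 in WT and -0.67, -1.01, -0.45, -0.83 and -1.11 in NFAT5 KO libraries. All 10 values were below 0, and 4 of 5 NFAT5 KO libraries lay above the WT maximum, NFAT5 KO 678_5 only just. The mean was -1.46 ± 0.33 in WT and -0.81 ± 0.27 in NFAT5 KO libraries (SD, n = 5 each). The difference of 0.64 had a two-sided exact permutation p of 0.0159, or 0.0635 adjusted over the 4 ratios, and did not pass. The smallest p that 5 against 5 libraries allow is 0.00794.

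The other 3 ratios differed by less than the spread between libraries. Cd28 to Icos differed by 0.05 (exact permutation p = 0.746, adjusted 0.746), from a mean of 0.50 ± 0.12 in WT to 0.55 ± 0.37 in NFAT5 KO libraries. Cd226 to Tigit, which encodes the inhibitory competitor for CD155, differed by -0.13 (exact permutation p = 0.540, adjusted 0.720), running from -1.17 to -0.76 in WT and from -1.54 to -0.49 in NFAT5 KO libraries. Tigit itself had a log2 change of -0.03 (adjusted p = 0.920, edgeR). Cd226 to Cd96 differed by -0.16 (exact permutation p = 0.294, adjusted 0.587), with means of -0.48 ± 0.19 and -0.64 ± 0.25. With CPM in place of TPM, the ratio of Cd226 to Cd96 differed by -0.027.

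**Figure D5:**
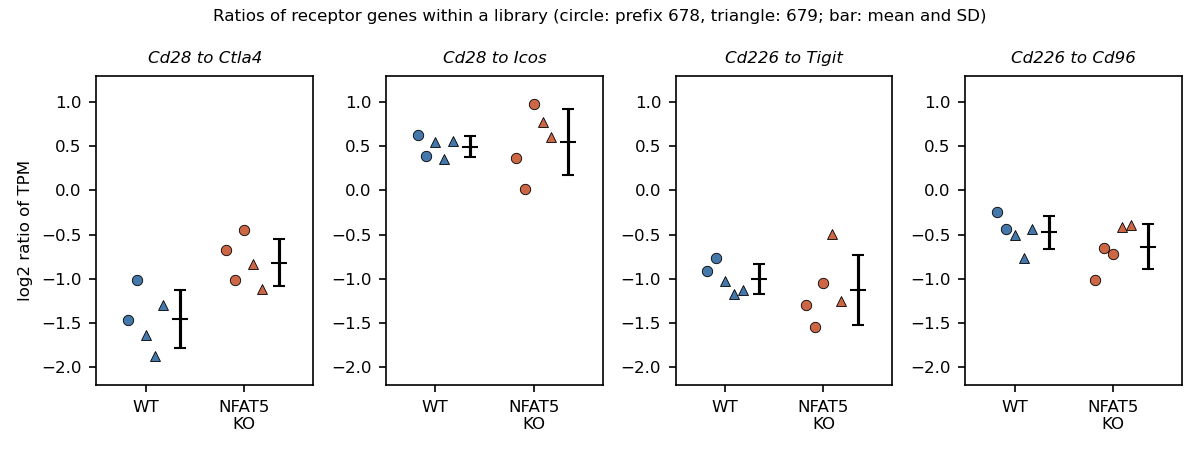
Log2 ratio of TPM (y axis, 0.5 added to each value) for 4 pairs of receptor genes in each WT and NFAT5 KO library, with circles for prefix 678, triangles for 679 and bars for the mean and SD of 5 libraries. The ratio of Cd28 to Ctla4 is below 0 in all 10 libraries and above the WT maximum in 4 of 5 NFAT5 KO libraries.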

How the data were processed

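Per the file headers, each deposited table lists 140919 transcripts of 1 library with a length, an effective length, the TPM and the estimated count, which is not normalized. The tool was Salmon 0.14.1, per the submitters' processing notes. Annotation, strand setting and trimming were not given in the sources used here. Deposited TPM values are scaled by effective length and library total.

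Here, 140045 transcripts (99.38%) were matched to GENCODE M21 (GRCm38), which gave all coordinates except those of the RefSeq promoters. Unmatched transcripts held 0.191% to 0.228% of the counts. The estimated counts of a gene's transcripts were added and the sum was rounded. Libraries held 22444310 to 32001285 estimated counts, which set the counting error, and no pair of libraries of a group agreed within sampling noise (at least 29.2 chi-square per degree of freedom). Genes passing filterByExpr (13081) were scaled with TMM and tested for NFAT5 KO minus WT with the edgeR 4.0.16 quasi-likelihood test (R 4.3.3, no covariate, threshold 0.05). The standard error (SE) is the ratio of the log2 change to the root of the F statistic. CPM used library totals of tested genes after TMM. The fit was tested on simulated counts in which genes varied independently. These counts held no shared differences between libraries, so the simulation does not test the calls under such differences.

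The members and lists were chosen with earlier results of these data known. All 9 members were named, with up to 6 called genes of each other list (smallest p), the genes of the 4 ratios, the 3 genes most correlated with each called member and the 2 main transcripts. 1 gene taken by this rule is not reported here but is included in its list's counts. Alternatives used DESeq2 1.42.0, limma 3.58.1 (voom), other scalings, filters and covariates, label prefixes and leaving out each library.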

Additional observations from a re-analysis of the deposited data

Results flagged for a closer look

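Of 18 groups of 5 libraries (9 receptor genes in 2 genotypes), 3 held a library whose gap to its nearest neighbour was large for the range of the group. Chance flags about 1 in 20 groups. Cd7 in NFAT5 KO 678_5 stood at 91.3 CPM, a gap of 0.786 of the range. Cd28 in WT 678_4 stood at 345.1 CPM (0.739 of the range), and Cd28 in NFAT5 KO 679_2 at 431.6 CPM (0.731 of the range). The critical value was 0.71. Both Cd7 and Cd28 were called without each of these libraries.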

How the results depend on the processing

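No paired analysis was possible because the labels give no replicate number that both genotypes share. With the label prefix as a block, 3 receptor genes were called (Cd2, Cd7 and Cd28). The number of receptor genes called higher was 0 in prefix 678 alone, 1 in prefix 679 alone and 0 with the macrophage marker covariate. It was 2 to 4 when single libraries were left out. Partner genes called numbered 5, but 0 in prefix 678 alone and 0 with the macrophage covariate, and 4 to 5 with 1 library left out. Signalling genes called numbered 3, but 0 in prefix 678 alone, 1 in prefix 679 alone, 0 with the macrophage covariate, 5 with the DESeq2 Wald test, 5 with limma-voom and 1 to 3 with 1 library left out. The prefix fits hold fewer samples, and the cause of these differences was not tested.

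Values near 0 turned sign. The ratio of Cd28 to Icos differed by -0.041 with CPM in place of TPM and lay between -0.057 and 0.184 when single libraries were left out, and Cd226 to Tigit differed by 0.005 with CPM. Cd6 was at -0.038 and Tigit at 0.009 with the macrophage covariate, and Cd96 at 0.022 with limma-voom. Cd226 was at 0.231 in prefix 679 alone. When single libraries were left out, Cd226 lay between -0.163 and 0.018 (679_6 or 678_3 of NFAT5 KO left out), Cd96 between -0.098 (without WT 679_5) and 0.013 (without WT 679_4), and Tigit between -0.151 and 0.043 (679_6 or 679_2 of NFAT5 KO left out). Cd5 lost its call with library size scaling (adjusted p = 0.0943), no low-count filter (0.0882), the length offset (0.057), the label prefix as a block (0.0853), the melanoma covariate (0.0614) and limma-voom (0.0595), and Sh2d2a with library size scaling (0.0501).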
